A study of Homo sapiens with 14 samples.

Results

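The clustered protocadherins are cell-surface adhesion proteins of the cadherin superfamily whose genes stand side by side on human chromosome 5. All genes of the table whose symbol begins with PCDHA, PCDHB or PCDHG were taken, without pseudogenes, which gave 53 of 58051 genes: 15 of the alpha cluster (chr5:140786136-141012347, hg38), 16 of the beta cluster (chr5:141051374-141249365) and 22 of the gamma cluster (chr5:141330514-141512977), all on the plus strand. They were read in 14 RNA-seq libraries of MGE-like progenitor cells, a culture counterpart of the medial ganglionic eminence, the ventral forebrain region that gives rise to cortical interneurons. The cells came from H9, an established human embryonic stem cell line, and were collected at day 25 of differentiation. All groups received SB431542 (2 µM) and LDN193189 (200 nM), which block TGF-beta and BMP signalling, on days 0 to 6, and SHH (250 ng/mL) with purmorphamine (0.3 µM), which activate hedgehog signalling, on days 10 to 17. The wild type (WT) has 3 libraries and the Ctnnb1 knockout (KO) has 5. Cells with inducible Ctnnb1 overexpression have 3 libraries that were given no doxycycline (OE without Dox) and 3 given 0.1 µg/mL doxycycline on days 17 to 25 (OE with Dox). CTNNB1 encodes beta-catenin, the adhesion protein that also carries WNT signals to the nucleus. The labels do not give the form of CTNNB1 that was induced, the make of the knockout, or whether KO and OE cells are single clones. Doxycycline was never given to WT cells, so effects of the drug and of the induced transgene cannot be told apart.

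Each alpha and each gamma protein is read from its own large first exon, with its own promoter, spliced to 3 short exons that all members of the cluster share. Beta members are genes of 1 exon. In a neuron only some of these promoters are used, a choice tied to DNA methylation, to the insulator protein CTCF and to cohesin looping, and the resulting set of proteins gives the cell a surface identity by binding like to like. The 5 members at the ends of the alpha and gamma arrays, named with a C (PCDHAC1, PCDHAC2, PCDHGC3, PCDHGC4 and PCDHGC5), are known to be controlled apart from the others.

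Values are normalized counts, which are gene reads divided by 1 factor per library. Libraries held between 5233270 and 5639725 reads in genes, and 3 reads, the limit that a count of 0 allows for counting error, correspond to a normalized count between 2.60 and 2.84. CTNNB1 itself averaged 3814 ± 573 (SD, n = 3) in WT, 2383 ± 271 (n = 5) in KO, 3345 ± 276 (n = 3) in OE without Dox and 27060 ± 3820 (n = 3) in OE with Dox, so its transcript remained abundant in KO. The MGE marker NKX2-1 was detected in every library, at 373 to 664 in WT and at 2387 to 3475 in KO. Reads in the shared exons cannot be assigned to 1 alpha or gamma member. Neither the counting mode nor the strand setting is given in the sources used here, and 23 of the 53 first exons overlap another annotated gene, so levels of single members, which also resemble each other in sequence, are uncertain to that extent.

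Of the 53 members, 43 reached a normalized count of 10 in at least 3 of the 14 libraries and were tested, namely 15 of 15 alpha, 14 of 16 beta and 14 of 22 gamma members. The 10 others were PCDHB1, PCDHB8, PCDHGA3, PCDHGA4, PCDHGA5, PCDHGB3, PCDHGA6, PCDHGA7, PCDHGA9 and PCDHGA12, whose highest library lay between 3.78 and 16.1. Means over all libraries spread over a wide range in each cluster, from 10.1 to 123 in alpha (median 22.3), from 1.31 to 262 in beta (median 38.1) and from 2.27 to 332 in gamma (median 9.51). Per kilobase of first exon, the highest levels were 128 for PCDHGB6, 83.5 for PCDHGC3, 64.0 for PCDHB2 and 58.1 for PCDHB5, and PCDHA4 led the alpha cluster at 48.8. The order depends on the length used, since per kilobase of exon that no other gene shares PCDHB2 stood at 114 and PCDHGB6 at 72.2. By that measure PCDHA4 stood at 11.6, below PCDHA6 at 25.4, and PCDHA1 at 2505 on only 7 such bases. The lead of PCDHA4 in the alpha cluster thus holds for the first-exon length only.

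**Figure D1:**
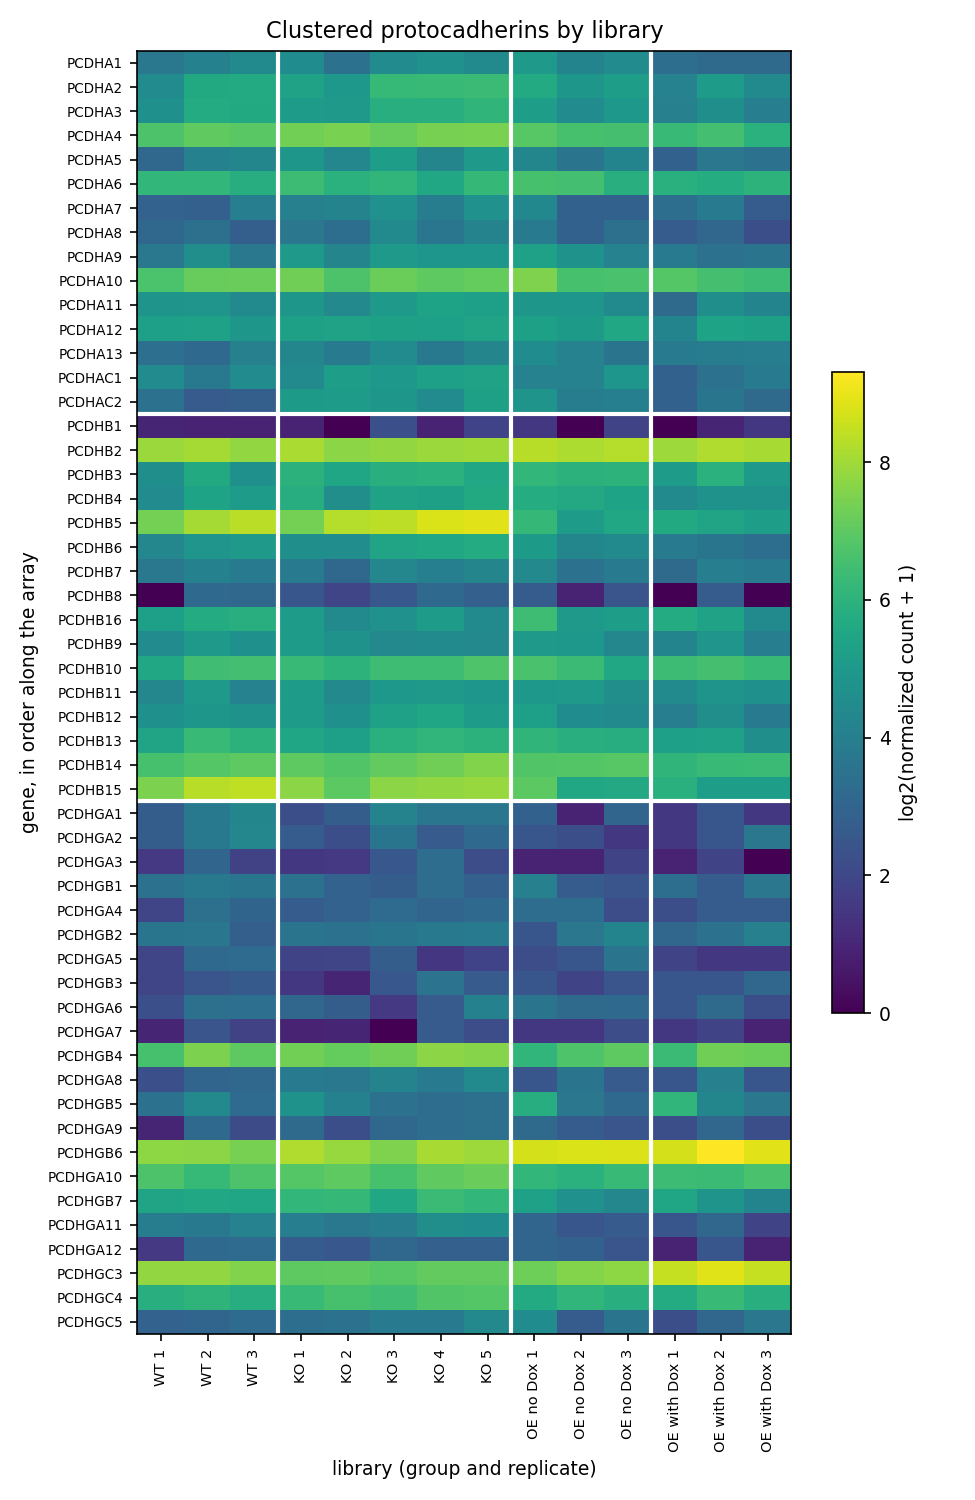
Normalized counts of the 53 clustered protocadherins (rows, in the order of the array within each cluster) in the 14 libraries (columns, by group), as log2 of the normalized count plus 1. PCDHB5 and PCDHB15 are high in the 3 WT and 5 KO libraries and low in the 6 OE libraries, and PCDHGB6 shows the opposite.

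The promoters of the members on which the results turn are printed here, because clustered protocadherins are known for a short promoter element, the CGCT box. Each window runs from 250 bases before the RefSeq start (GRCh38.p14) over 300 bases, and capitals mark CGCT on the gene's own strand. They lie on the plus strand at chr5:140966226-140966525 (PCDHAC2), chr5:141134956-141135255 (PCDHB5), chr5:141245145-141245444 (PCDHB15), chr5:141407771-141408070 (PCDHGB6, the first of 2 windows) and chr5:141475716-141476015 (PCDHGC3).
PCDHAC2: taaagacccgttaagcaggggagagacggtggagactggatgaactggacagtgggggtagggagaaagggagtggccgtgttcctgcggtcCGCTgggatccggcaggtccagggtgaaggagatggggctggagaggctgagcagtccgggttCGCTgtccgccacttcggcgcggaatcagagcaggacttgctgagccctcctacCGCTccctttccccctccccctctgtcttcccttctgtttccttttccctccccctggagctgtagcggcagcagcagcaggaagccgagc
PCDHB5: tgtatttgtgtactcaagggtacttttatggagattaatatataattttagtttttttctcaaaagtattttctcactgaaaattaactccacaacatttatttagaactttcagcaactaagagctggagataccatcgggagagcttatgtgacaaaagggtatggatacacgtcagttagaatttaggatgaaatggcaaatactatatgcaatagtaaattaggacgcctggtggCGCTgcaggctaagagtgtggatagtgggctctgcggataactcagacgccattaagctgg
PCDHB15: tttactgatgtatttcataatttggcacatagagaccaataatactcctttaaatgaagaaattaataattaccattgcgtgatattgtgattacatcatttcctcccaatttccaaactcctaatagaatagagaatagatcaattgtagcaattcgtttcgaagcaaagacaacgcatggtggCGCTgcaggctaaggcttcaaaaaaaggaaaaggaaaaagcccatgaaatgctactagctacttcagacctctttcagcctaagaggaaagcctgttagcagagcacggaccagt
PCDHGB6: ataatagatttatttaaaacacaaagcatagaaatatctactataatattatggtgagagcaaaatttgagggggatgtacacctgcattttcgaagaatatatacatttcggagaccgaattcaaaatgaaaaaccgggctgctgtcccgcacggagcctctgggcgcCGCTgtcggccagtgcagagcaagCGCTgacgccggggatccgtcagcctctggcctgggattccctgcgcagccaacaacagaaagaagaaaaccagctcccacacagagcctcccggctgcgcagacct
PCDHGC3: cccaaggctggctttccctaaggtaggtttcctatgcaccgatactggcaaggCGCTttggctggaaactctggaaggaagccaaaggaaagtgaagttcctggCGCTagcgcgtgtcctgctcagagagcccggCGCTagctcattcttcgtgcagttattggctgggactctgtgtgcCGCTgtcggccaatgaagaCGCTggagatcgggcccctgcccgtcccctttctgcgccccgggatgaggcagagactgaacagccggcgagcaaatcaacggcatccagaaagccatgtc

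The window of PCDHB5 holds 1 CGCT, which begins 11 bases before the start. That of PCDHB15 holds 1, which begins 65 bases before it. PCDHGB6 has CGCT at 2 places in the window shown, PCDHAC2 at 3 and PCDHGC3 at 5. On the own strand CGCT was found in 54.3% of 34943 promoter windows, so these letters alone do not identify a CGCT box. RefSeq windows were found for 47 of the 53 members. CGCT on either strand was present in 46 of these 47 (97.9%, the exception being PCDHA9), against 69.9% of 34943 promoter windows of the same length. The core of the CTCF motif matched on either strand in 1 of 47 (PCDHB9) and in 2.41% of all windows, and CTTTGAT, the TCF/LEF motif through which beta-catenin acts, matched on either strand in 0 of 47 and in 2.63% of all windows. These matches are letters in a short window and give no information on binding. For CTCF and for TCF/LEF only 1 fixed pattern each was searched. The counts thus do not show that the other promoters lack CTCF sites, or that any lacks TCF/LEF sites. At a share of 2.63% few matches are expected among 47 members, so 0 is not told apart from that share. The CTCF match in PCDHB9 runs from -82 to -71 relative to the start, and the CGCT of that promoter begins at -71. The CGCT and the CTCF match thus meet there and are not separate elements in that window. Within each cluster CGCT often stood in its own surroundings, found by searching these same promoters. GGTGGCGCT occurred in 13 of 14 beta windows (all but PCDHB1) and in 0.501% of all windows. GATGTCGCT occurred in 9 of 13 alpha windows (0.106% of all) and GCGCCGCTG in 10 of 20 gamma windows (1.28% of all). Each was in 0 windows of the other 2 clusters. Both PCDHB5 and PCDHB15 carry the beta run around the single CGCT shown above, and the PCDHAC2 window does not hold the alpha run.

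Some members separated the OE cells, with or without doxycycline, from WT and KO. PCDHB5 and PCDHB15, both beta members, were much lower in OE cells, and PCDHGB6, a gamma member of the B type, was higher than in WT. All 3 encode cell-surface cadherins of the alternate kind, of which a neuron is thought to use a few at a time.

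PCDHB5 stood at normalized counts of 163, 263 and 328 in WT, at 166, 312, 337, 442 and 481 in KO, at 73.2, 34.2 and 46.2 in OE without Dox, and at 48.9, 42.8 and 35.0 in OE with Dox. The 8 libraries without the transgene thus all lay above the 6 with it. The log2 fold of OE without Dox to WT was -2.28 (SE 0.36, limma adjusted p = 0.0011), that of KO to OE without Dox 2.72 (SE 0.32, adjusted p = 8.8e-05), and that of OE with Dox to WT -2.50 (SE 0.36, adjusted p = 6.4e-05). Neither KO against WT (log2 fold 0.44, adjusted p = 0.45) nor Dox within the OE line (-0.22, adjusted p = 0.71) passed the test.

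PCDHB15 stood at 178, 315 and 342 in WT, at 206, 126, 204, 220 and 236 in KO, at 123, 46.3 and 48.0 in OE without Dox, and at 60.0, 35.3 and 35.0 in OE with Dox. The gap was narrow at 1 point, between KO 2 at 126 and OE without Dox 1 at 123. Against WT the log2 fold was -2.02 without Dox (SE 0.36, limma adjusted p = 0.0027) and -2.64 with it (SE 0.36, adjusted p = 3.6e-05). KO exceeded OE without Dox by 1.56 (SE 0.32, adjusted p = 0.012), a call that was lost without OE without Dox 2 or 3 (adjusted p = 0.11 and 0.096).

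PCDHGB6 stood at 214, 207 and 171 in WT, at 295, 233, 181, 269 and 248 in KO, at 422, 436 and 448 in OE without Dox, and at 417, 637 and 471 in OE with Dox. Its lowest OE library was thus well above its highest KO or WT library. OE without Dox exceeded WT by a log2 fold of 1.14 (SE 0.18, limma adjusted p = 0.0009), KO to OE without Dox gave -0.84 (SE 0.16, adjusted p = 0.0065), and OE with Dox exceeded WT by 1.34 (SE 0.18, adjusted p = 2.1e-05). The Dox effect within the line was 0.20 (adjusted p = 0.47).

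These shifts changed the make-up of both clusters. PCDHB5 and PCDHB15 together made up 36.0 to 47.5% of the beta reads in WT and 31.1 to 44.8% in KO, but 9.20 to 17.0% in OE without Dox and 9.47 to 15.0% in OE with Dox. Without them the beta sum was 605 to 829 in WT, 610 to 883 in KO, 778 to 961 in OE without Dox and 616 to 746 in OE with Dox, ranges that overlap between WT and each of the other groups. PCDHGB6 made up 20.5 to 26.0% of gamma reads in WT and 42.9 to 44.2% in OE without Dox. Between OE without Dox and KO, sums of 10 neuronal markers overlapped (16131 to 18211 and 16406 to 19980) and sums of 6 choroid plexus markers did not (333 to 540 and 36.0 to 75.5). Most of the choroid plexus sum was TRPM3, with means of 290 in OE without Dox and 26.2 in KO. The part of these cell types in the differences of the 3 members was not tested. Genotype and line cannot be told apart in the difference from WT, since each genotype may stand for 1 line.

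**Figure D2:**
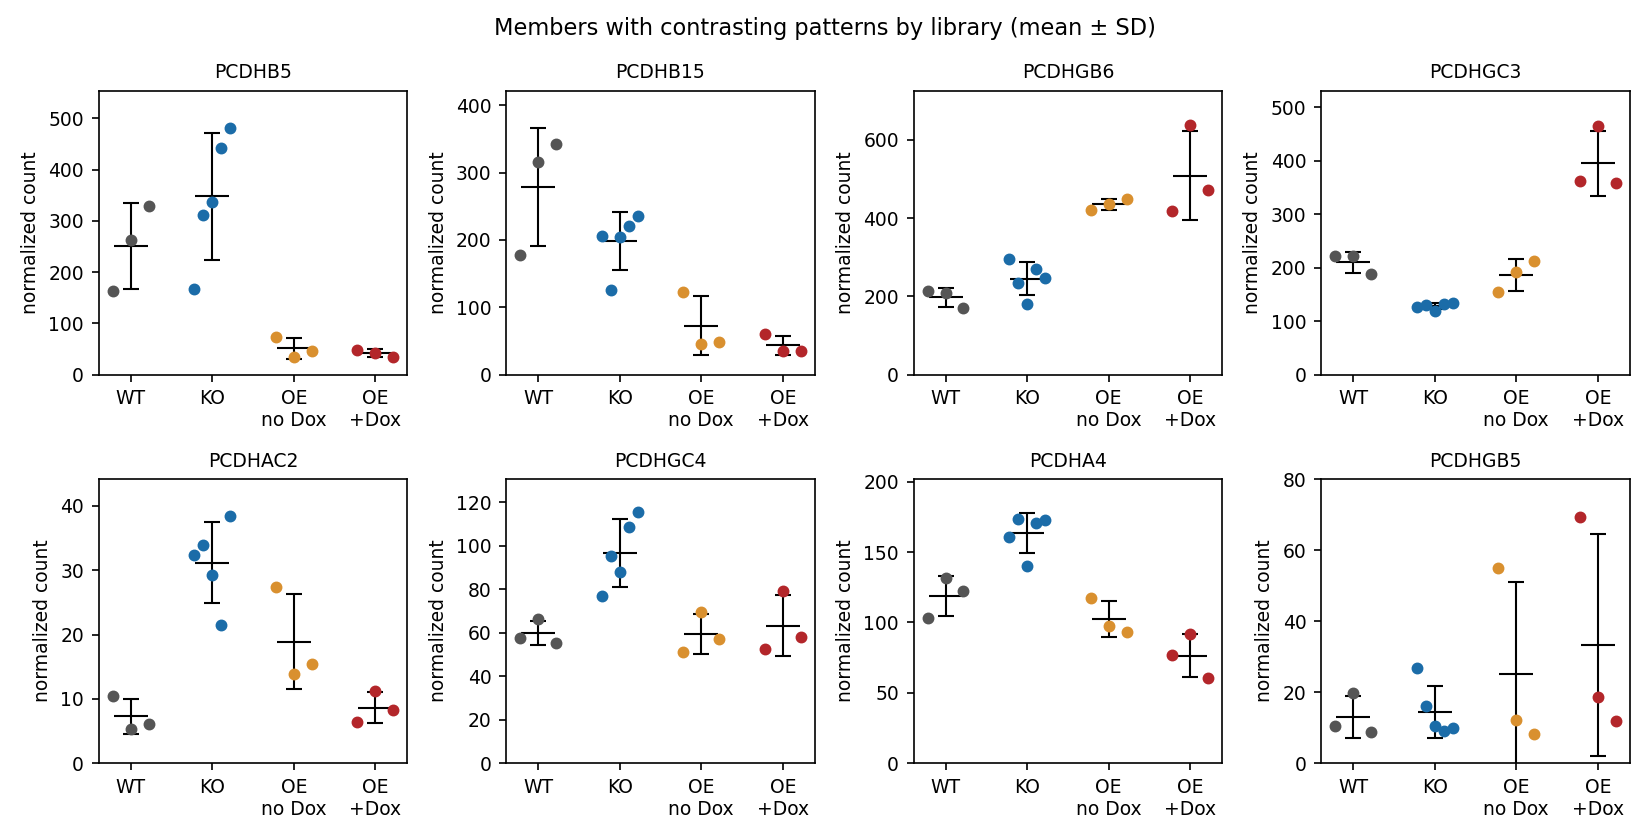
Normalized counts of single members by group, 1 point per library, with the group mean as a line and the SD as whiskers, which end at 0 for PCDHGB5 in OE without Dox. PCDHB5 and PCDHB15 are at 123 or less in all 6 OE libraries, PCDHGB6 is at 417 or more in the same 6, and PCDHGC3 is lowest in the KO group and highest in OE with Dox.

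Over all members, OE without Dox against WT gave 3 of 43 higher (6.98%, beside 3.43% of the 17102 genes tested) and 2 lower (4.65%, beside 2.32%). Groups did not overlap for 5 higher (beside 11.6% of genes) and 5 lower members (beside 11.4%). Besides the 3 genes above, the calls were PCDHAC2, described with the C-type members, and PCDHB3, a beta member, at 23.7, 50.1 and 24.3 in WT and 70.4, 62.0 and 63.5 in OE without Dox (log2 fold 1.06, SE 0.29, limma adjusted p = 0.038). PCDHB3 was 62.8, 44.4, 55.7, 60.2 and 45.6 in KO and 34.2, 61.3 and 31.3 in OE with Dox, so its OE without Dox libraries overlapped with KO. The call of PCDHB3 was lost without any 1 of these 6 libraries but WT 2 (adjusted p up to 0.17), and the higher count dropped to 1 without WT 3, without OE without Dox 1 or without OE without Dox 3. Group means of all 53 members were evenly split, with 29 higher and 24 lower in OE without Dox. The median log2 fold was 0.04, against -0.03 over all genes tested, of which 46.7% were higher.

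KO was next set against OE without Dox. It was higher in 6 of 43 members (beside 0.351% of all genes tested) and lower in 1 (beside 1.75%). The libraries did not overlap for 9 members that were higher in KO (20.9%, beside 2.47% of genes) and 3 that were lower (6.98%, beside 4.39%). After PCDHB5, PCDHB15 and PCDHGB6 the calls were 3 gamma members and 1 alpha member. PCDHGB7, a gamma member of the B type, was 71.1, 72.7, 47.2, 80.8 and 71.6 in KO and 39.3, 25.0 and 19.0 in OE without Dox, beside 42.6, 45.6 and 44.2 in WT and 45.2, 27.0 and 17.5 in OE with Dox (KO against OE without Dox, log2 fold 1.32, SE 0.28, limma adjusted p = 0.014). PCDHGA10, of the A type, was 115, 127, 95.4, 131 and 143 in KO, 70.4, 61.1 and 76.1 in OE without Dox, 104, 75.1 and 104 in WT and 82.2, 80.9 and 98.6 in OE with Dox (0.81, SE 0.17, adjusted p = 0.014). PCDHGA11, also of the A type, was 14.8, 12.3, 14.2, 23.4 and 22.4 in KO against 7.32, 4.63 and 5.44 (1.41, SE 0.33, adjusted p = 0.029). In all 3 the KO libraries lay above all OE without Dox libraries. Calls were lost for PCDHGB7 without OE without Dox 2 or 3, for PCDHGA10 without OE without Dox 1 or 2, and for PCDHGA11 without KO 4, KO 5 or OE without Dox 2 or 3, with adjusted p up to 0.18. The higher count dropped to 1 without OE without Dox 2 and to 2 without OE without Dox 3, and the lower count was 2 without OE without Dox 1. The comparison shares its OE libraries with the one against WT, so the 2 sets of calls are not separate evidence.

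The C-type members divided in the KO comparison. PCDHGC3 was lower in KO than in WT and higher with Dox, while PCDHAC2 and PCDHGC4 were higher in KO. PCDHGC3 is the C-type gamma protein whose tail is known to bind AXIN1, a brake of the WNT pathway, PCDHAC2 is known for the tiling of serotonergic axons, and PCDHGC4 is the isoform on which the survival of many neurons depends in mice.

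PCDHGC3 stood at normalized counts of 222, 222 and 188 in WT, at 127, 130, 119, 133 and 134 in KO, at 154, 192 and 213 in OE without Dox, and at 362, 466 and 358 in OE with Dox. All KO libraries lay below every other library, and all OE with Dox libraries above. The KO to WT log2 fold was -0.70 (SE 0.14, limma adjusted p = 0.0019). Dox raised it by 1.08 (SE 0.16, adjusted p = 3.8e-05), and OE with Dox exceeded WT by 0.90 (SE 0.16, adjusted p = 0.00033). Both the fall in KO and the rise with Dox held in every alternative and with any library left out, with a largest adjusted p of 0.013 in KO. OE without Dox did not pass the test against WT (-0.19, adjusted p = 0.59), nor did KO against OE without Dox (-0.52, SE 0.14, adjusted p = 0.073), although those libraries did not overlap. PCDHGC3 made up 22.5 to 27.0% of gamma reads in WT, 12.3 to 14.5% in KO and 28.7 to 31.0% in OE with Dox.

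PCDHAC2 stood at 10.4, 5.36 and 6.06 in WT, at 32.3, 34.0, 29.3, 21.6 and 38.5 in KO, at 27.4, 13.9 and 15.4 in OE without Dox, and at 6.46, 11.2 and 8.30 in OE with Dox. WT and OE with Dox both lay at 11.2 or below, and KO was highest on average. KO exceeded WT by a log2 fold of 1.98 (SE 0.31, limma adjusted p = 0.00019), in each alternative that tested it and with any library left out. OE without Dox exceeded WT by 1.25 (SE 0.34, adjusted p = 0.038), and Dox gave a log2 fold of -1.01 (SE 0.34, adjusted p = 0.036). The call against WT was lost without WT 2, WT 3 or OE without Dox 1 or 3 (adjusted p up to 0.21), and that of Dox without OE without Dox 1 or OE with Dox 1 or 3 (up to 0.20).

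PCDHGC4 stood at 57.7, 66.1 and 55.4 in WT and at 76.7, 95.4, 87.9, 109 and 115 in KO, without overlap. It was at 51.2, 69.4 and 57.1 in OE without Dox and at 52.6, 79.0 and 58.1 in OE with Dox. KO exceeded WT by a log2 fold of 0.68 (SE 0.19, limma adjusted p = 0.02), a call lost without WT 1, WT 3, KO 4 or KO 5 (adjusted p up to 0.093). PCDHAC1 is the first C-type gene of the alpha cluster. PCDHAC1 stood at 21.8, 12.5 and 21.7 in WT, at 21.2, 35.9, 30.2, 36.8 and 40.3 in KO, at 16.5, 16.7 and 29.0 in OE without Dox, and at 6.46, 10.2 and 12.9 in OE with Dox. With Dox it fell by 0.997 on the log2 scale (SE 0.34, limma adjusted p = 0.036; lost without OE without Dox 3 or OE with Dox 1 or 2), and KO against WT did not pass the test (0.79, adjusted p = 0.096). PCDHGC5 was low throughout, at 6.63, 7.15 and 8.66 in WT, 9.24, 10.4, 13.2, 13.5 and 19.7 in KO, 21.9, 5.55 and 10.9 in OE without Dox and 3.69, 7.44 and 11.98 in OE with Dox, and passed no test. Summed over the 4 C-type members other than PCDHGC3, levels were 91.2 to 96.6 in WT and 139 to 214 in KO, the opposite direction to PCDHGC3.

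Across the whole family, KO against WT gave few calls: 2 of 43 higher (4.65%, beside 6.64% of all genes tested) and 1 lower (2.33%, beside 7.15%), namely PCDHAC2, PCDHGC4 and PCDHGC3. The groups did not overlap for 6 members that were higher in KO (beside 8.61% of genes) and for 3 that were lower (beside 9.53%). The higher count was 1 without WT 1, 4 without WT 2, and 1 without KO 4 or without KO 5. Means nonetheless leaned one way in the alpha cluster, where 15 of 15 were higher in KO (PCDHA6 by a log2 fold of only 0.00084). The median log2 fold was 0.56, against -0.02 over all genes tested, of which 47.8% were higher in KO. Alpha members share exons, so these may not be 15 separate readings. In the beta cluster 11 of 16 means were higher (median 0.29) and in the gamma cluster 14 of 22 (median 0.19). PCDHA4, the alpha member with the highest level per kilobase of first exon, was 103, 131 and 122 in WT, 161, 174, 140, 171 and 173 in KO, 117, 97.2 and 93.4 in OE without Dox, and 76.6, 92.0 and 60.8 in OE with Dox. Every KO library was above every other library. KO against WT did not pass the test for PCDHA4 (0.46, limma adjusted p = 0.069), but KO against OE without Dox did (0.67, SE 0.16, adjusted p = 0.033), as did OE with Dox against WT (-0.64, SE 0.18, adjusted p = 0.015). The first of these was lost without any 1 library but KO 3 and OE without Dox 1 (adjusted p up to 0.19), and the second without WT 2 or OE with Dox 3 (up to 0.096).

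With doxycycline in the OE cells 4 alpha and 4 beta members fell and PCDHGC3 rose, while most members did not pass the test. Of 43 members 1 was higher (2.33%, beside 12.8% of genes) and 8 were lower (18.6%, beside 12.9%), and the libraries did not overlap for 2 higher (4.65%, beside 21.2%) and 10 lower members (23.3%, beside 19.5%). The lower shares were thus not far from those of all genes. The 8 that fell were 4 alpha members (PCDHA1, PCDHA9, PCDHAC1 and PCDHAC2) and 4 beta members (PCDHB4, PCDHB6, PCDHB13 and PCDHB14). Group means were lower with Dox in 15 of 15 alpha members (median log2 fold -0.66) and in 15 of 16 beta members (-0.51). They were lower in 11 of 22 gamma members (0.07). The median over all genes tested was 0.02, and 51.7% of them were higher with Dox.

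PCDHA1, the first gene of the array, stood at 31.1, 17.6 and 21.8 in OE without Dox and at 9.23, 8.36 and 8.30 in OE with Dox, beside 12.3, 16.1 and 20.8 in WT and 22.2, 10.4, 21.7, 25.2 and 20.6 in KO. Its Dox libraries lay below all 11 others, and it fell by 1.31 on the log2 scale (SE 0.34, limma adjusted p = 0.0071), also with any library left out. GENCODE leaves this gene 7 exon bases that no other gene shares, so what its reads come from is uncertain. PCDHA9 went from 39.3, 26.8 and 16.3 to 13.9, 10.2 and 11.1 with Dox, beside 12.3, 23.2 and 12.1 in WT and 31.4, 17.9, 31.2, 28.7 and 28.6 in KO (log2 fold -1.09, SE 0.34, adjusted p = 0.024), a call lost without OE without Dox 1 or 2 or OE with Dox 2 or 3 (adjusted p up to 0.15).

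Among the beta members, PCDHB4 went from 54.0, 48.1 and 41.7 to 20.3, 26.0 and 26.7 with Dox, beside 21.8, 41.1 and 33.8 in WT and 54.5, 23.6, 40.6, 38.6 and 50.1 in KO (-0.95, SE 0.30, limma adjusted p = 0.024). PCDHB13 went from 67.7, 57.4 and 54.4 to 36.9, 39.0 and 24.0, beside 42.6, 76.0 and 62.4 in WT and 43.4, 37.8, 59.5, 69.2 and 61.7 in KO (-0.85, SE 0.27, adjusted p = 0.028). PCDHB14 went from 110, 112 and 118 to 67.4, 79.0 and 80.2, beside 96.6, 114 and 129 in WT and 127, 110, 134, 155 and 185 in KO (-0.58, SE 0.19, adjusted p = 0.03). For these 3 the OE libraries with Dox lay below all those without it, and against WT the Dox libraries of PCDHB13 and PCDHB14 were lower too (adjusted p = 0.038 and 0.039). PCDHB6 went from 32.9, 18.5 and 20.9 to 13.9, 11.2 and 9.22 (-0.99, SE 0.35, adjusted p = 0.043). PCDHB2, the beta member with the highest level per kilobase, passed no test, at 315, 290 and 312 without Dox and 247, 296 and 276 with it, beside 239, 263 and 225 in WT and 281, 206, 223, 242 and 252 in KO. Leaving out 1 library ended the Dox call of PCDHB14 in each of 6 fits (adjusted p 0.051 to 0.11), of PCDHB4 without OE without Dox 1 or 2 or OE with Dox 1, of PCDHB13 without OE without Dox 1 or 2 or OE with Dox 3, and of PCDHB6 without OE without Dox 1 or 3 or OE with Dox 2 or 3 (up to 0.20). The number of members lower with Dox rested on single libraries: it was 2, 4 and 5 without OE without Dox 1, 2 and 3, and 4 and 3 without OE with Dox 1 and 3.

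**Figure D3:**
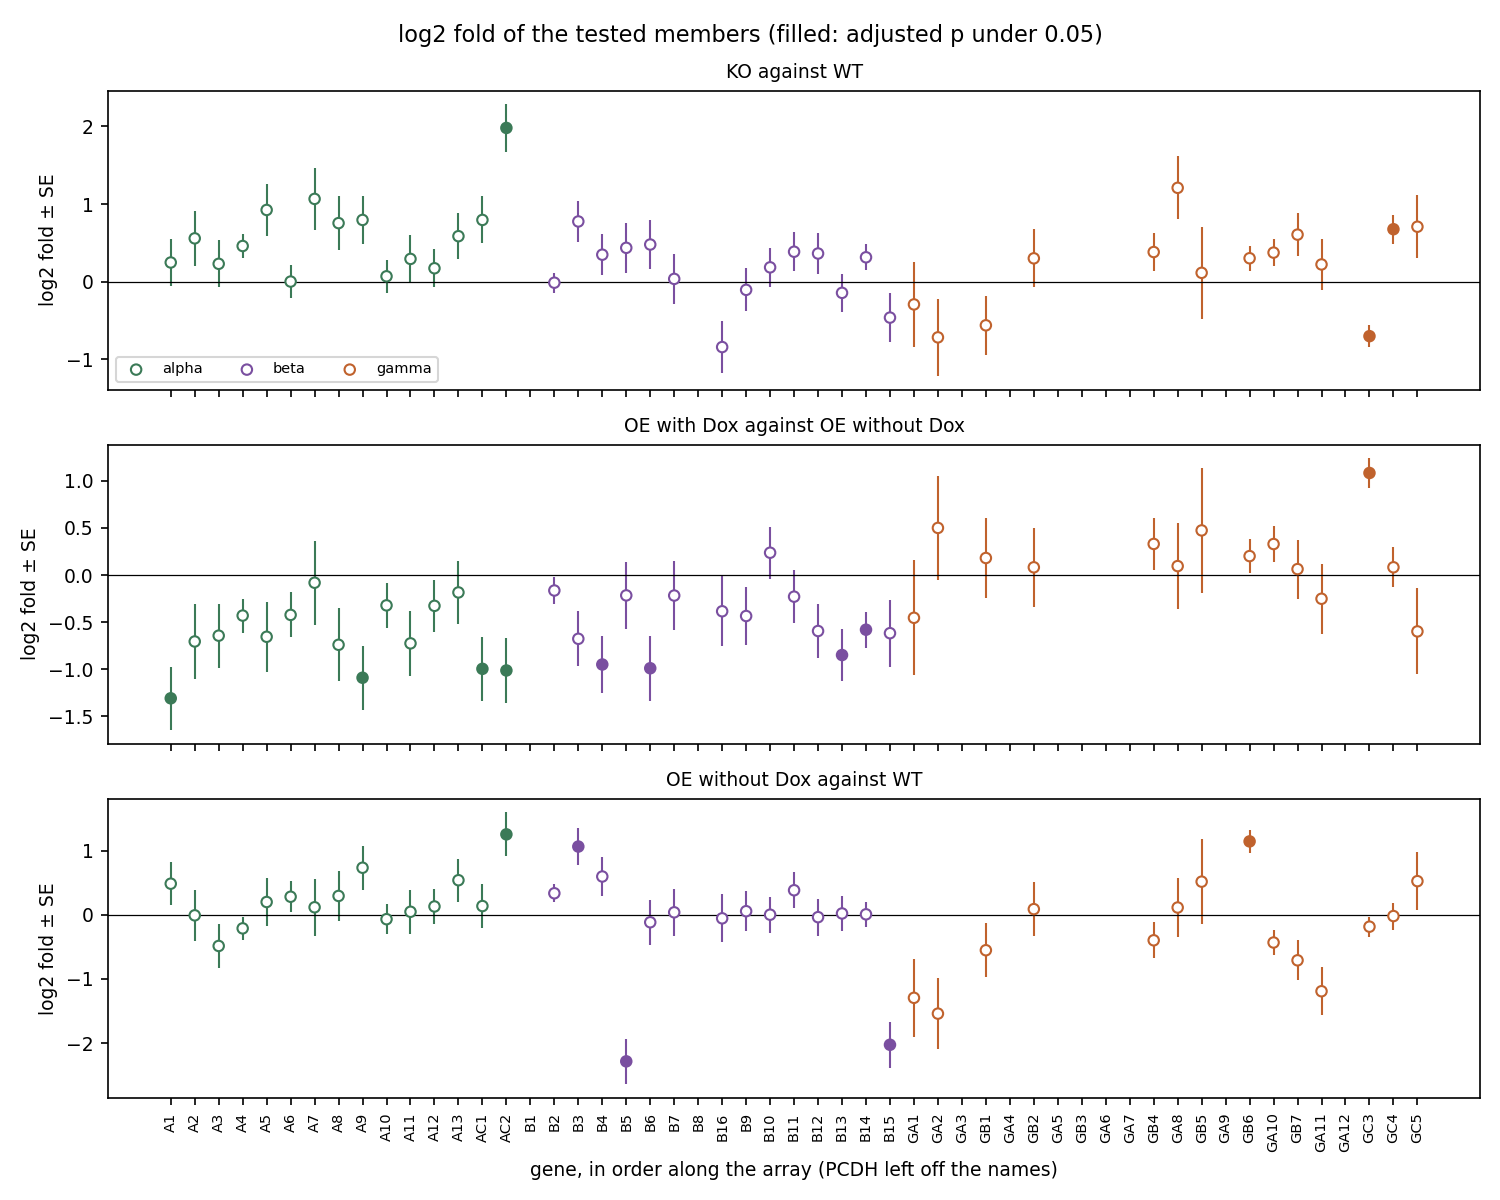
Log2 folds (y axis) of the 43 tested members in the order of the array (x axis; the 10 untested ones are left blank) in 3 comparisons, with 1 standard error as whiskers and called members filled. With Dox all 15 alpha members lie below 0, and PCDHGC3 stands alone above it among the called ones.

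The sums of the clusters were compared without a test. The alpha sum was 473 to 610 in WT, 618 to 830 in KO, 509 to 736 in OE without Dox and 374 to 448 in OE with Dox, so KO and WT did not overlap and nor did the 2 OE groups. The beta sum was 946 to 1412, 1047 to 1601, 872 to 1158 and 686 to 824. The gamma sum was 822 to 949, 827 to 1083, 972 to 1043 and 1166 to 1560. Log2 ratios of the group means with Dox were -0.55 for alpha, -0.38 for beta and 0.40 for gamma, and those of KO to WT were 0.40, 0.09 and 0.16, of which that of beta was -0.08 without WT 1. The gamma share of all clustered protocadherin reads was 29.4 to 36.7% in WT, 28.3 to 35.1% in KO, 33.9 to 43.0% in OE without Dox and 51.3 to 55.1% in OE with Dox. The gamma sum of OE without Dox was higher than that of WT by 0.20 on the log2 scale, and lower by -0.25 when PCDHGB6 was left out. With Dox as well the gamma sum rested on 2 of its 22 members: without PCDHGB6 and PCDHGC3 it was 358 to 397 in OE without Dox and 387 to 457 in OE with Dox, ranges that overlap.

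**Figure D4:**
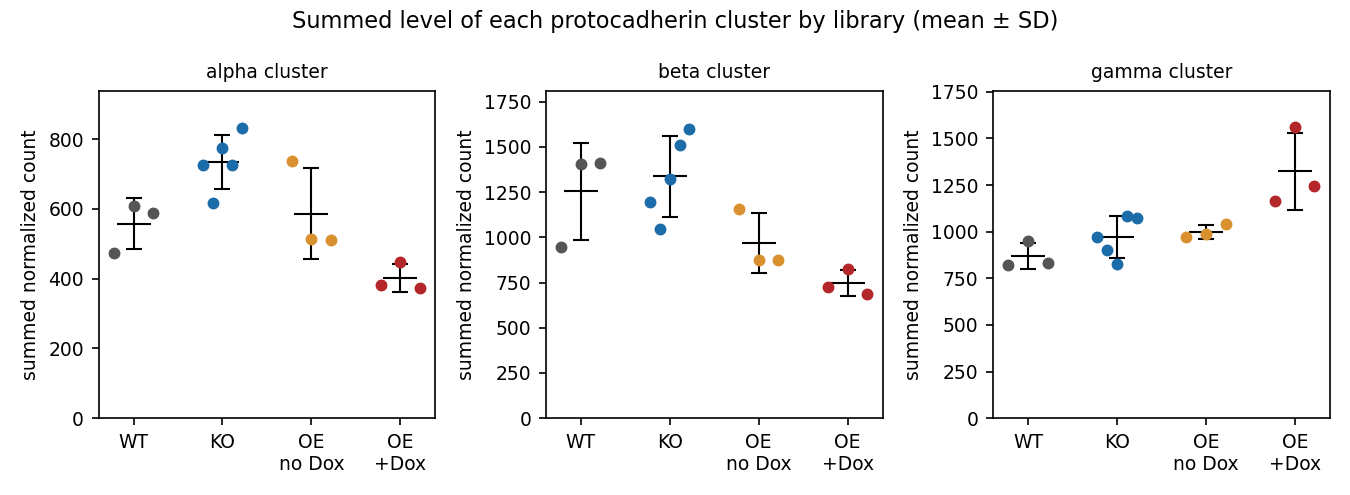
Summed normalized counts of the alpha, beta and gamma clusters in each library by group, 1 point per library with the group mean and SD. OE with Dox has the lowest alpha and beta sums (374 to 448 and 686 to 824) and the highest gamma sum (1166 to 1560).

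In bulk samples fewer cells of a type and less RNA per cell cannot be told apart. Markers of neurons, in which clustered protocadherins are chiefly known, differed between the same groups: the sum of 10 neuronal markers was 8930 to 10505 in WT, 16406 to 19980 in KO, 16131 to 18211 in OE without Dox and 5244 to 5971 in OE with Dox. Of these 10, 8 were higher in KO than in WT, while 1 was higher and 8 were lower with Dox. The sum of 8 MGE markers, NKX2-1 among them, was 2069 to 2565 in WT, 5732 to 6716 in KO, 3595 to 6458 in OE without Dox and 560 to 1312 in OE with Dox, of which KO against WT called 3 higher and 1 lower, and Dox 8 of 8 lower. The sum of 8 progenitor markers was 24296 to 27655, 16858 to 21671, 21844 to 22556 and 16553 to 19324, with 1 higher and 3 lower in KO and 1 higher and 6 lower with Dox. Large parts of this sum, NES and VIM, went opposite ways in the OE cells. NES averaged 8156 without and 1536 with Dox, and VIM 5173 without and 11155 with it. The sum of 6 mesenchyme markers was 504 to 1855, 239 to 453.5, 335 to 1753 and 1381 to 6472 in the same order. Choroid plexus markers summed to 304 to 463, 36.0 to 75.5, 333 to 540 and 923 to 1185. Of the 4 tested, KO against WT called 0 higher and 2 lower, and Dox 2 higher and 0 lower. Most of this sum was 1 gene, TRPM3, with group means of 273, 26.2, 290 and 945. TTR stood at 4.57, 254 and 29.9 in OE without Dox and at 5.54, 34.4 and 46.1 in OE with Dox, which overlap. Neural crest markers summed to 464 to 546, 66.1 to 181, 124 to 264 and 153 to 682, with SOX10 at 0 in all libraries. In its highest library FOXD3 reached 6.06 and TFAP2A 50.9, while NGFR reached 449 and PAX3 592. The part of these cell types in the shifts of the alpha and beta clusters and of PCDHGC3 was not tested.

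OE with Dox against WT combined the line difference with that of Dox, and shares its libraries with the comparisons above. Of 43 members 2 were higher (4.65%, beside 10.4% of genes), PCDHGB6 and PCDHGC3, and 8 were lower (18.6%, beside 10.1%), with no overlap for 2 higher (beside 16.1%) and 11 lower members (beside 15.4%). Members not yet described were PCDHA3, an alpha member at 24.6, 52.7 and 49.4 in WT and 15.7, 24.2 and 14.7 in OE with Dox, beside 34.2, 32.1, 55.7, 56.6 and 67.1 in KO and 35.7, 21.3 and 29.9 in OE without Dox (log2 fold -1.13, SE 0.34, limma adjusted p = 0.024), and PCDHB6 at 18.9, 27.7 and 31.2 in WT (-1.11, adjusted p = 0.029). PCDHGA11 fell from 14.2, 12.5 and 16.5 to 4.62, 7.44 and 2.77 (-1.44, SE 0.37, adjusted p = 0.0087). For all 3 the groups did not overlap. Calls were lost for PCDHA3 without WT 2, WT 3 or OE with Dox 1 or 3, for PCDHB6 without WT 2, WT 3 or OE with Dox 2 or 3, and for PCDHGA11 without OE with Dox 3 (adjusted p up to 0.11). The calls of PCDHB13 and PCDHB14 against WT were lost without WT 2, WT 3 or OE with Dox 3, and that of PCDHB14 also without OE with Dox 1 or 2. The lower count was 4 without WT 2, 4 without WT 3 and 2 without OE with Dox 3. In all, 19 of the 53 members were called in at least 1 of the 5 comparisons.

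Regulators of the family were examined as lists. Of 12 genes of CTCF and cohesin 1 was higher in KO, STAG2, a cohesin subunit, from 1180 ± 145 in WT (SD, n = 3) to 1932 ± 261 in KO (n = 5; log2 fold 0.71, SE 0.12, limma adjusted p = 0.00046), which is 8.33% of the list beside 6.64% of genes. STAG2 was also higher than WT in OE without Dox (1878 ± 165, adjusted p = 0.0056) and OE with Dox (1870 ± 133, adjusted p = 0.0013; n = 3 each), so WT stood apart from the other groups, and KO against OE without Dox gave a log2 fold of 0.03 (adjusted p = 0.99). With Dox 0 were called (0 at an unadjusted p under 0.05, and 0 by edgeR and by DESeq2), and CTCF stood at 710 ± 58.6 without and 634 ± 107 with Dox. List medians were log2 folds of -0.07 in KO and -0.0037 with Dox. Of 19 genes of DNA methylation and silencing 1 was lower in KO, the histone deacetylase HDAC1 (807 ± 78.7 in WT, 571 ± 63.6 in KO, adjusted p = 0.0092), which is 5.26% of the list beside 7.15% of genes. With Dox 1 was higher (5.26%, beside 12.8% of genes) and 6 lower (31.6%, beside 12.9%), and the list median was -0.23, against 0.02 over all genes. DNMT3B, a DNA methyltransferase known to methylate protocadherin promoters, went from 283 ± 16.4 to 115 ± 14.1 (n = 3 each; -1.30, SE 0.19, adjusted p = 3.4e-05), and REST, a repressor of neuronal genes, from 299 ± 19.9 to 486 ± 39.1 (0.70, adjusted p = 0.014). The demethylases TET3 and TET2 of the same list also had lower means with Dox (1001 ± 134 to 598 ± 79.6, and 600 ± 2.15 to 420 ± 67.2). The methyltransferases DNMT1 and DNMT3A differed less (1019 ± 179 to 991 ± 234, and 948 ± 109 to 847 ± 77.3). DNA methylation itself was not tested.

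Proteins that cut or bind protocadherins gave 1 of 20 lower in KO (beside 7.15% of genes). With Dox 5 were higher (beside 12.8% of genes) and 3 lower (beside 12.9%). PSEN2, a subunit of the gamma-secretase that releases their tails, averaged 69.8 ± 10.9 in WT and 47.0 ± 5.70 in KO (log2 fold -0.56, limma adjusted p = 0.042), and went from 57.3 ± 9.86 to 152 ± 12.6 with Dox (1.40, SE 0.20, adjusted p = 2.8e-05). MARCKS, an actin-binding protein downstream of the gamma members, went from 4979 ± 336 to 2644 ± 279 with Dox (-0.92, adjusted p = 2.1e-05). Non-clustered protocadherins and the related FAT, Dachsous and CELSR cadherins had 6 of 21 higher (28.6%, beside 6.64% of genes) and 4 lower in KO (19.05%, beside 7.15%), with a median log2 fold of 0.26 against -0.02 over all genes. With Dox 3 were higher (14.3%, beside 12.8%) and 10 lower (47.6%, beside 12.9%), with a median of -0.68 against 0.02. FAT4, a large cadherin of planar polarity, averaged 996 ± 21.1 in WT and 230 ± 63.0 in KO (-2.16, SE 0.20, adjusted p = 6.3e-07). PCDH9, expressed in many neurons, went from 421 ± 82.3 to 116 ± 35.4 with Dox (-1.88, SE 0.23, adjusted p = 8.1e-06), and CELSR3, which guides axons, from 1016 ± 108 to 385 ± 42.2 (-1.40, adjusted p = 2.5e-06).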

How the data were processed

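RNA-seq used the NEBNext Ultra RNA kit on 500 ng of RNA, per the labels' protocols, which is known as a kit that does not mark strand. The deposited signal is the number of reads per gene over 1 factor per library, set by the authors; all of it (100.0%) came out as whole reads at a tolerance of 0.01. Build hg38, HTSeq 0.9.1, TopHat2 2.1.1, DESeq2 (no version given) and R 3.4.0 are named, per the submitters' processing notes. Names and exons come from GENCODE 44, and promoters from RefSeq.

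Genes at 10 or more in at least 3 of 14 libraries (17102) were tested on log2(normalized count + 1) by limma 3.58.1 in R 4.3.3 (trend, robust, 10 residual degrees of freedom, two-sided), as 1 model of the 4 groups, with Benjamini-Hochberg adjustment at 0.05 over all genes in each of 5 comparisons. The script was tested on simulated data. Folds understate changes of low genes. No scaling alternative moved the median of all genes by over 0.1 on the log2 scale.

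The labels do not say that replicates are separate cultures, so p-values measure the spread between these samples, which may be technical. Same-numbered libraries deviated together in OE without against with Dox (correlations 0.22 to 0.40) and in WT against OE without Dox (0.17 to 0.28). The pairing comes from the data, since the labels give only numbers, and the replicate block made the same 9 and 5 calls there.

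Also tried were a filter of 50 or none, pseudocounts of 0.5 and 5, upper-quartile and TMM scaling, limma without the robust option, the replicate block, edgeR 4.0.16 and DESeq2 1.42.0 on the recovered reads, the 2 compared groups alone, and each library left out. Values are given for CTNNB1 (as means) and by library for up to 6 called members per comparison by adjusted p. They are also given by library for the C-type members and the highest member per kilobase of first exon in each cluster. PCDHB6, PCDHB13 and PCDHB14 are included also where the limit of 6 left them out. Of other lists up to 4 called genes per main comparison could be named, of which a selection is printed. Members and lists were chosen with earlier results of these data known. Plots were made with Python 3.11.15 and matplotlib 3.10.9.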

Additional observations from a re-analysis of the deposited data

Results flagged for a closer look

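Over the 5 KO libraries, 25 measures (21 members described by library, the 3 cluster sums and CTNNB1) were searched for a library far from the others. For 2 of them 1 library stood apart by more than Dixon's 95% limit, which chance passes in about 1 of 20. PCDHA9 stood at 17.9 in KO 2 and at 28.6 to 31.4 in the other 4 KO libraries. PCDHGB7 stood at 47.2 in KO 3 and at 71.1 to 80.8 in the others.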

How the results depend on the processing

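No call of a member reversed its direction under an alternative. Away from fits that left out a library, 339 member results kept their side of the threshold and 25 did not. In the fits that left out 1 library, 150 kept it and 74 did not. Of the counts of called members, those for KO against WT moved from 2 higher to 1 with no filter, with a filter of 50 and with the replicate block, and to 5 with upper-quartile scaling, and from 1 lower to 2 with the 2 groups alone. With Dox the 8 lower became 4 with no filter, 3 with a filter of 50 and 5 with the 2 groups alone. For OE without Dox against WT the 3 higher became 1 with the 2 groups alone. For KO against OE without Dox the 6 higher became 2 with the replicate block, and the 1 lower became 2 by DESeq2. Same-numbered libraries of these groups correlated at 0.049 to 0.22 and differently numbered ones at -0.29 to 0.088. Whether the numbers pair these libraries is thus not settled. The gamma sum of OE without Dox against WT, a log2 ratio of 0.20, became -0.25 without PCDHGB6. PCDHA4, PCDHB15, PCDHGA10 and PCDHGA11 lost their calls of KO against OE without Dox with the block (adjusted p 0.089, 0.10, 0.082 and 0.16), and PCDHGC4 its call in KO against WT (0.056). A filter of 50 leaves fewer members to test, and the other causes were not tested.

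With each library left out, counts ranged from 1 to 4 higher and 1 to 1 lower in KO against WT, 1 to 1 and 2 to 7 with Dox, 1 to 2 and 2 to 2 in OE without Dox against WT, 1 to 6 and 1 to 2 in KO against OE without Dox, and 2 to 2 and 2 to 9 in OE with Dox against WT. Log2 ratios of the sums ranged from 0.30 to 0.47 (alpha), -0.08 to 0.18 (beta) and 0.12 to 0.23 (gamma) in KO against WT, from -0.64 to -0.35, -0.46 to -0.23 and 0.27 to 0.49 with Dox, and from -0.12 to 0.17, -0.54 to -0.28 and 0.17 to 0.27 in OE without Dox against WT. On recovered reads edgeR called 1194 genes up and 1224 down for KO against WT, and 2180 and 2240 for Dox. Members at a normalized count near 10 rest on about as many reads, which limits the precision of their values.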

Other observations

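Some members varied widely between libraries of 1 group. PCDHGB5, a gamma member of the B type, stood at 54.9 (without Dox) and 69.3 (with Dox) in the OE libraries numbered 1, and at 12.03, 8.16, 18.6 and 11.98 in the other 4 OE libraries, beside 8.66 to 19.7 in WT and 8.98 to 26.8 in KO. PCDHB16, a beta member, stood at 85.0 (without Dox) and 52.6 (with Dox) in the first OE libraries, and at 31.5, 36.3, 40.0 and 20.3 in the other 4, beside 36.9 to 56.3 in WT and 20.6 to 34.2 in KO. These members were picked after their values were seen, and passed no test between the groups.

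PCDHGA8, a gamma member of the A type, was at 3.79, 7.15 and 7.80 in WT and at 13.9, 12.3, 17.0, 13.5 and 20.6 in KO, with no overlap, and missed the threshold (log2 fold 1.21, limma adjusted p = 0.056). PCDHGB4, the fourth of the gamma B members, averaged 171 in KO and 134 in WT, and its OE means were 129 with and 101 without Dox.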
